A study of Mus musculus with 15 samples.

Results

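The genes described here are the mouse fibroblast growth factors (FGFs) with their receptors, and 7 ligands and the 4 receptors of the epidermal growth factor (ERBB) family. They were chosen by symbol: every Fgf gene with a number, the FGF receptors Fgfr1 to Fgfr4 and Fgfrl1, and Egf, Areg, Ereg, Hbegf, Tgfa, Btc, Nrg1, Egfr, Erbb2, Erbb3 and Erbb4. This gave 38 of the 46603 gene IDs in the deposited tables, of which 22 passed the filter on low counts and were tested. RNA was sequenced from mouse embryonic fibroblasts (MEFs) that carried no functional Actb allele (KO), a single functional allele (HET) or both (WT); Actb encodes the cytoskeletal protein beta-actin.

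Per the labels, the MEFs came from BALB/c embryos aged 10.5 days and were supplied by a single laboratory; the labels give no number of embryos or clones behind each genotype. All 15 samples, WT included, were grown on Matrigel and switched at confluence (day 0) to the osteogenic medium OsteoMax-XF with the glucocorticoid dexamethasone and the adenylyl cyclase activator forskolin, each listed at 5 mM, so no group was left without these agents. The groups were KO, HET and WT at day 14 and KO and WT at day 4, with 3 libraries each. The labels call all of them chemically reprogrammed osteoblasts. They do not say whether the 3 libraries of a group came from separate cultures, so the p-values below measure only the spread between these libraries, which may be technical.

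Secreted FGFs bind heparan sulfate and activate tyrosine kinase receptors that signal through the adaptor FRS2 to the RAS-ERK cascade. In the skeleton, FGF signalling controls the proliferation and maturation of osteoprogenitors and chondrocytes, and FGF7 and FGF10 are made by mesenchyme and act mainly on an epithelial splice form of FGFR2. ERBB ligands are made as membrane-bound precursors, are released by ADAM proteases and activate EGFR, ERBB3 or ERBB4, with ERBB2 as the common partner, and EGFR signalling is known to hold back osteoblast maturation.

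Library totals were 19878449 to 47486736 counts. Actb itself, the targeted gene, averaged 44.7 ± 1.74 CPM (read counts scaled to library size) in KO, 1521 ± 107 in HET and 2994 ± 62.6 in WT at day 14, and 134 ± 4.38 in KO against 1180.4 ± 15.1 in WT at day 4 (SD, n = 3). HET replicate 2 stood apart: its chi-square per degree of freedom over genes was 50.1 and 50.4 against the other 2 HET libraries, which differed from each other by 2.89. The WT libraries of day 14 were also uneven, at 9.72 and 18.6 for replicate 1 against replicates 2 and 3, and 5.02 between those. Pairs within WT at day 4 and KO at both days gave 2.15 to 2.99. WT at day 14 enters every comparison with WT at that day. Members called in HET against WT are also given without HET replicate 2, and so are the members whose call in KO against HET changed. The sums and shares given for HET include it. Of 10 osteoblast markers, Runx2, Alpl, Spp1, Col1a1 and Pth1r passed the filter, while Sp7, Bglap, Bglap2, Ibsp and Dmp1, which mark committed and mature osteoblasts, stayed under the low-count filter in all groups. The 10 summed to 5846 to 5922 CPM in KO and 3718 to 3740 CPM in WT at day 4. At day 14 they summed to 2737 to 2830 CPM in KO, 3135 to 3371 CPM in HET and 2533 to 2657 CPM in WT. Directions were mixed: in KO against WT 2 of the 5 tested were higher and 3 lower at day 4, and 2 were higher and 2 lower at day 14. Over all tested genes 69.5% and 63.1% were called at these days. Smooth muscle markers moved with genotype: 4 of 5 were tested and all 4 were higher in KO at day 4, beside 35.7% of all tested genes. The summed level of the smooth muscle list at day 4 was 2321 to 2336 CPM in KO and 2.91 to 3.19 CPM in WT. At day 14 that sum was 513 to 536 CPM in KO, 91.7 to 108 CPM in HET and 41.5 to 46.9 CPM in WT. Of the 4 tested, 3 were then higher in KO than in WT and 1 did not pass. In HET against WT 2 were higher, 1 was lower and 1 did not pass, beside 58.3% of all tested genes called. No marker of that list was at 0 in any group. The share of counts from mitochondrial genes also moved with genotype, at 1.08 to 1.12% in KO, 0.729 to 0.851% in HET and 0.484 to 0.542% in WT at day 14, and 0.836 to 0.845% in KO against 0.415 to 0.421% in WT at day 4. The part of these markers and of this share in the results below was not tested.

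Of the 11 tested members that lay at least 4-fold apart between KO and WT at day 4, 7 had a promoter entry in the RefSeq table (GRCm38.p6). The sequence of the 250 bases before the gene start is shown for the 3 ligands among them that were lower in KO and exceeded 10 CPM in a group, because every sample received forskolin, which raises cyclic AMP. Each window was searched on both strands for the cAMP response element (TGACGTCA), its partial site (TGACG, which also lies on both strands inside the full element), the AP-1 site (TGANTCA) and the ETS core (GGAA). Capitals mark matches to the cAMP elements. The 3 windows shown are on the plus strand and run 5′ to 3′. The Fgf10 window lies before the start of a shorter GENCODE transcript and within an intron of longer ones.
Areg, chr5:91139349-91139598: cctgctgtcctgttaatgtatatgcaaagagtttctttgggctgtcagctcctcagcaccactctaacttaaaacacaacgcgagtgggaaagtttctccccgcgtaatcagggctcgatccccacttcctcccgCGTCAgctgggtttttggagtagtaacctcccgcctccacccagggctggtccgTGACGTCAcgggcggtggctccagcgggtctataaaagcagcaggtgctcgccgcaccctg
Fgf7, chr2:126034408-126034657: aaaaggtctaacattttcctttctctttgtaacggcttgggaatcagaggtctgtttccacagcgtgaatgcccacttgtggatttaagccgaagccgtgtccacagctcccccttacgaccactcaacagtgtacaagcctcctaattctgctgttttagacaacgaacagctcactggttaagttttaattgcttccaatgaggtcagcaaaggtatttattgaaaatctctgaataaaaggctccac
Fgf10, chr13:118714449-118714698: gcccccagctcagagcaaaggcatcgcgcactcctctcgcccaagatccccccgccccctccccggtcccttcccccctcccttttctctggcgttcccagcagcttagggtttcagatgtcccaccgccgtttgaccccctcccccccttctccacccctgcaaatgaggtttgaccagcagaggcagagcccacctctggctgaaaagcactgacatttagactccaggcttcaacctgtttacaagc
The Areg window held 1 full element and 3 matches to the partial site, of which 2 belong to the full element. The windows of Fgf7, Fgf10, Fgfr2, Fgf22 and Tgfa held neither, and that of Fgf2 held 2 partial sites. For Fgfr2 and Tgfa the RefSeq bases that follow the window were not found in one piece in any GENCODE transcript of the gene, so these windows may not lie at a GENCODE start. No window among the 7 held an AP-1 site, and each held 1 to 4 ETS cores. Of 32851 promoter windows of the same length, 1.55% held the full element, 17.8% the partial site, 6.75% an AP-1 site and 93.4% an ETS core. These matches describe the letters of the windows only.

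The secreted ligand with the largest genotype difference was Fgf7 (ENSMUSG00000027208, chr2:126034658-126091185, plus strand), keratinocyte growth factor. At day 14 it stood at 5.92, 3.34 and 4.62 CPM in KO, 143, 155 and 146 CPM in HET and 117, 123 and 117 CPM in WT libraries. At day 4 it stood at 2.44, 1.79 and 2.45 CPM in KO, against 240.2, 241 and 236 CPM in WT libraries. KO libraries were far below all others at both days, and no KO value came near the WT or HET range; HET lay slightly above WT at day 14 with no overlap. The log2 fold change of KO over WT was -4.68 ± 0.13 at day 14 (SE; edgeR quasi-likelihood test with Benjamini-Hochberg adjustment, adjusted p = 1.16e-13) and -6.74 ± 0.14 at day 4 (adjusted p = 1.26e-15), lower both times. In HET it was higher than in WT by 0.31 ± 0.10 (adjusted p = 0.0119), and KO against HET gave -4.99 ± 0.13 (adjusted p = 4.56e-14). These RNAs come from bulk cultures, in which fewer cells of a type and less RNA per cell cannot be told apart. All CPM values use TMM-scaled library sizes, and each ± after a log2 fold change below is an SE.

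Fgf10 (ENSMUSG00000021732, chr13:118669791-118792115, plus strand), which shares the FGFR2 epithelial form with FGF7 and drives limb and lung budding, was lower in KO at both days but by less. Day 14 values were 22.6, 22.4 and 25.2 CPM in KO, 20.7, 17.7 and 25.1 CPM in HET and 47.2, 42.5 and 41.2 CPM in WT. Day 4 values were 55.4, 52.5 and 54.8 CPM in KO, against 253, 241 and 239.9 CPM in WT. The KO and HET ranges overlapped at day 14 and both lay under every WT library, and at day 4 all KO values were under all WT values. The log2 fold change was -0.90 ± 0.10 in KO against WT at day 14 (adjusted p = 7.74e-07) and -1.04 ± 0.10 in HET against WT (adjusted p = 1.84e-07). At day 4 it was -2.17 ± 0.09 in KO against WT (adjusted p = 5.46e-12). Between KO and HET the difference was 0.14 ± 0.10 and did not pass (adjusted p = 0.234). The KO and HET comparisons with WT at day 14 use the same WT libraries, here and for every gene below. From day 4 to day 14 the log2 change of Fgf7 was -1.003 ± 0.10 in WT, a fall, and 1.05 ± 0.16 in KO, a rise. Fgf10 fell in both genotypes, with -2.49 ± 0.09 in WT and -1.21 ± 0.09 in KO.

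Fgf2 and Fgf1, heparin-bound ligands that act on FGFR1 among other receptors, were much less abundant and moved differently from Fgf7. Fgf2 stood at 7.54, 9.49 and 8.22 CPM in KO, against 1.94, 2.31 and 1.94 CPM in WT at day 4. At day 14, Fgf2 had 1.56, 0.777 and 0.948 CPM in KO, 1.15, 0.315 and 0.180 CPM in HET and 0.513, 0.510 and 0.701 CPM in WT. All KO values were above all WT values at day 4; at day 14 every library was under 2 CPM, KO lay just above WT and overlapped with HET. It was higher in KO at day 4 by 2.02 ± 0.28 on the log2 scale (adjusted p = 7.5e-06). The day 14 difference of 0.93 ± 0.45 did not pass (adjusted p = 0.0792). Fgf2 overlaps Nudt6 on the opposite strand over 640 exon bases, and the library kit keeps no strand; Nudt6 had 816 counts over the 15 libraries, and its part in the Fgf2 counts was not tested. Fgf1 stood at 3.04, 2.51 and 3.24 CPM in KO, 1.68, 0.736 and 1.53 CPM in HET and 0.420, 0.603 and 0.327 CPM in WT at day 14. At day 4, Fgf1 had 0.121, 0.224 and 0.137 CPM in KO, against 1.12, 0.545 and 0.379 CPM in WT. It was highest in all 3 KO libraries of day 14 and lowest in the KO libraries of day 4, with no overlap with WT at either day. The log2 fold change in KO against WT was 2.69 ± 0.43 at day 14 (adjusted p = 2.82e-05) and -2.13 ± 0.53 at day 4 (adjusted p = 0.001), and HET against WT gave 1.55 ± 0.45 (adjusted p = 0.00619).

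Fgf17, of the FGF8 subfamily, and Fgf22, of the FGF7 subfamily, were detected at under 0.7 CPM in every library. Fgf17 was lower in KO than in WT at day 4, at -2.79 ± 0.67 on the log2 scale (adjusted p = 0.000465), with 0, 3 and 4 counts in KO libraries against 23, 20 and 11 in WT libraries. At day 4 Fgf22 had 0, 1 and 1 counts in the KO libraries and 2, 7 and 3 in the WT libraries. Its edgeR call (adjusted p = 0.0325) was lost under 6 of 10 alternatives, among them without KO replicate 1 or 3 and without WT replicate 2 or 3. At day 14 Fgf22 was lower in KO than in WT, with 6, 3 and 1 counts in KO libraries and 11, 14 and 14 counts in WT libraries (log2 fold change -2.06 ± 0.60, adjusted p = 0.00438). Fgf22 shares 82 exon bases with Rnf126 on the opposite strand, a gene with 45906 counts over the 15 libraries, and what part of its counts came from that transcript was not tested.

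Of the hormone-like FGFs, which travel in blood and need klotho proteins as coreceptors, Fgf21 was tested. Its levels were 6.63, 6.17 and 6.64 CPM in KO, 3.93, 4.36 and 4.32 CPM in HET and 4.94, 4.96 and 5.93 CPM in WT at day 14. At day 4, Fgf21 had 8.14, 8.76 and 8.69 CPM in KO, against 14.3, 13.6 and 14.2 CPM in WT. At day 4 every KO library was under every WT library; at day 14 the order was KO, then WT, then HET, with narrow gaps. Fgf21, a metabolic stress hormone, was lower in KO at day 4, at -0.72 ± 0.09 (log2; adjusted p = 2.6e-06). At day 14 the value was 0.30 ± 0.11 in KO against WT (adjusted p = 0.0214). That call was lost under 6 of 12 alternatives, with 0.28 without KO replicate 1, 0.28 without KO replicate 3, 0.25 without WT replicate 1 and 0.25 without WT replicate 2. In HET against WT, -0.33 ± 0.12 (adjusted p = 0.0189) was lost under 5 of 12, with -0.28 without HET replicate 1 and -0.23 without WT replicate 3. Fgf11, an FGF homologous factor that stays inside the cell, had 0.169, 0.411 and 0.632 CPM in KO, 0.814, 0.525 and 0.901 CPM in HET and 3.69, 2.74 and 2.71 CPM in WT at day 14. At day 4, Fgf11 had 1.54, 2.01 and 1.15 CPM in KO, against 0.663, 0.571 and 0.379 CPM in WT. WT libraries were above KO and HET libraries at day 14 and under KO libraries at day 4, without overlap. In KO against WT it was lower, at -2.89 ± 0.39 at day 14 (adjusted p = 5.7e-06) and higher by 1.49 ± 0.34 at day 4 (adjusted p = 0.00102), both on the log2 scale.

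**Figure D1:**
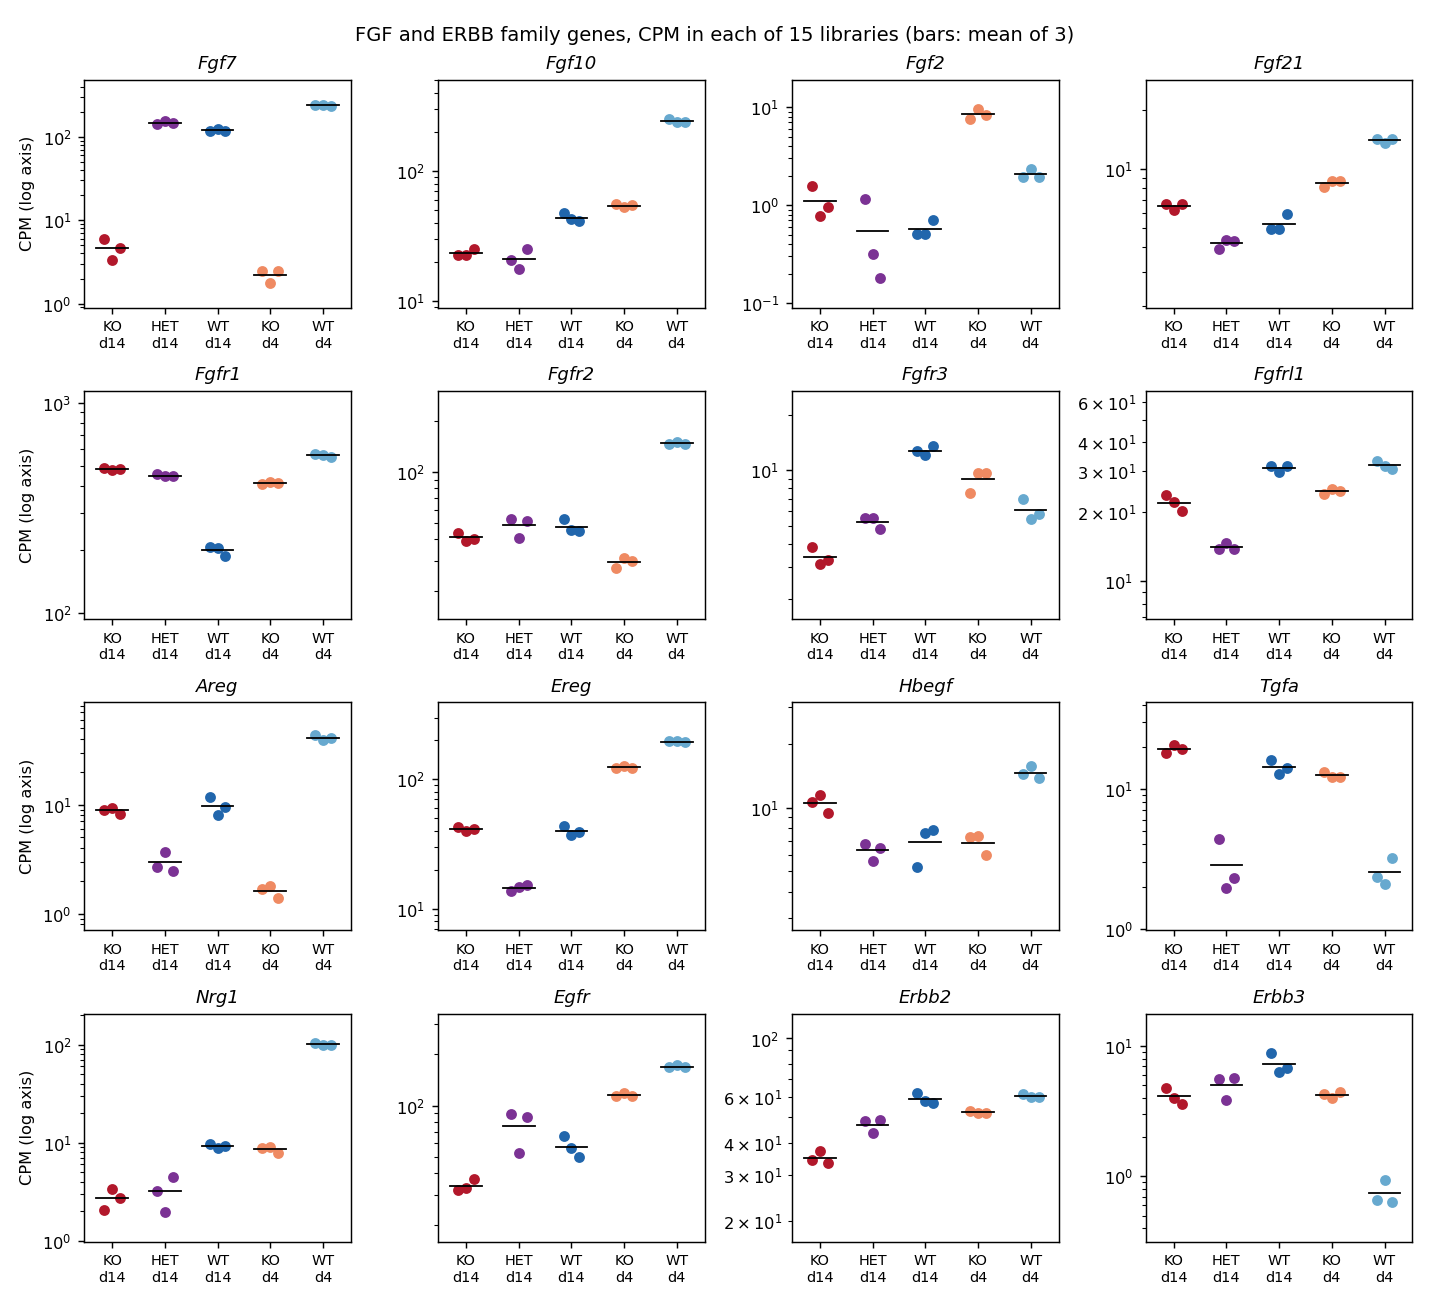
CPM (TMM-scaled, log axis) of 16 FGF and ERBB family genes in each library; points are the 15 libraries, bars the mean of 3, and the columns run KO, HET and WT at day 14, then KO and WT at day 4. Fgf7 reaches at most 5.92 CPM in KO libraries and at least 117 CPM in all others, while Fgfr1 at day 14 is at least 446 CPM in KO and HET and at most 207 CPM in WT.

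The 16 members that did not pass the filter were Erbb4, Fgfr4 and 14 FGF ligands or homologous factors, and no test was made on them. Fgf3 and Fgf20 had no count in any library, which at 3 counts over a group allows up to 0.0483 CPM in HET, the group with the fewest counts. Fgf12, Fgf13, Fgf14, Fgf15, Fgf16, Fgf4, Fgf6 and Fgf8 reached at most 5 counts over the 3 libraries of any group. Fgf9 reached 12 counts, Fgf5 10 counts, Erbb4 13 counts, Fgf18 22 counts, Fgf23 21 counts and Fgfr4 26 counts in the group where each was highest. Fgf23, the bone hormone that controls phosphate, had 1, 0 and 0 counts in the KO libraries of day 14, 1, 3 and 0 in the HET libraries and 13, 5 and 3 in the WT libraries. Fgf18, a ligand for growth plate and bone receptors, had 1, 0 and 1 counts in KO, 1, 2 and 2 in HET and 16, 4 and 2 in WT libraries at day 14, so that a single WT library held 16 of the 22 WT counts. The limit set by 3 counts covers counting error only, since reads from PCR libraries without molecular identifiers are not independent molecules.

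Among the FGF receptors, Fgfr1 (ENSMUSG00000031565, chr8:25513654-25575718, plus strand), the main FGF receptor of mesenchyme, was set apart at day 14 in both mutant genotypes. It had 487, 481 and 483 CPM in KO, 456, 446 and 449.5 CPM in HET and 207, 204 and 188 CPM in WT libraries at day 14. It had 413, 419.8 and 414 CPM in KO, against 567, 563 and 554 CPM in WT libraries at day 4. At day 14 all KO and HET values were above all WT values and KO lay just above HET, whereas at day 4 all KO values were under all WT values. Against WT the log2 fold change was 1.28 ± 0.04 in KO (adjusted p = 1.96e-12) and 1.17 ± 0.04 in HET (adjusted p = 5.83e-12) at day 14, and -0.43 ± 0.04 in KO at day 4 (adjusted p = 2.59e-07). From day 4 to day 14 Fgfr1 fell in WT (log2 change -1.49 ± 0.04) and rose in KO (0.22 ± 0.04), and the changes differed by 1.71 ± 0.06 (interaction of genotype and day, adjusted p = 2.35e-12).

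Fgfr2, the receptor whose splice forms divide epithelium from mesenchyme, showed a genotype difference at day 4. Its day 4 values were 27.2, 31.2 and 29.9 CPM in KO, against 146, 149.8 and 146 CPM in WT. Its day 14 values were 43.7, 39.3 and 40.3 CPM in KO, 53.1, 40.9 and 51.5 CPM in HET and 52.5, 45.3 and 45.0 CPM in WT. KO libraries were under WT libraries by a wide margin at day 4, and all 3 genotypes lay close together at day 14, with HET spanning the range of WT. Fgfr2 was lower in KO at day 4, at -2.33 ± 0.09 (log2; adjusted p = 2.94e-12), and the day 14 difference of -0.21 ± 0.09 did not pass (adjusted p = 0.0549). It did pass under 4 of 12 alternatives, at -0.25 without KO replicate 1 and at -0.25 without WT replicate 3. In KO against HET it was lower, at -0.24 ± 0.09 (adjusted p = 0.0338), a call lost under 5 of 12 alternatives, with -0.21 and -0.22 without KO replicates 2 and 3, and -0.17 and -0.19 without HET replicates 1 and 3. Gene counts do not separate the splice forms, and Fgfr2 shares 314 annotated exon bases with Ctbp2 on the same strand.

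Fgfr3, known for restraining growth plate chondrocytes, differed in opposite directions at the 2 days. It had 3.85, 3.11 and 3.24 CPM in KO, 5.51, 5.52 and 4.77 CPM in HET and 12.8, 12.1 and 13.5 CPM in WT at day 14. At day 4, Fgfr3 had 7.51, 9.62 and 9.70 CPM in KO, against 6.97, 5.45 and 5.81 CPM in WT. At day 14 the groups ran KO, HET and WT from low to high with no overlap, and at day 4 all KO values were above all WT values. Fgfr3 was lower in KO at day 14, at -1.91 ± 0.14 (log2; adjusted p = 1.22e-08), with -1.28 ± 0.14 for HET against WT (adjusted p = 8.02e-07). It was higher in KO at day 4 by 0.55 ± 0.13 (adjusted p = 0.00115). Fgfrl1, a receptor-like protein without a kinase domain, had 23.6, 21.9 and 20.2 CPM in KO, 13.8, 14.7 and 13.7 CPM in HET and 31.5, 29.8 and 31.6 CPM in WT at day 14. At day 4, Fgfrl1 had 23.8, 25.1 and 24.7 CPM in KO, against 33.3, 31.7 and 30.7 CPM in WT. Every KO library was under every WT library at both days, and HET was lowest of all. The log2 fold change against WT was -0.50 ± 0.07 in KO at day 14 (adjusted p = 1.45e-05), -1.14 ± 0.07 in HET (adjusted p = 2.2e-09) and -0.38 ± 0.07 in KO at day 4 (adjusted p = 0.000106).

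Levels of different genes were set side by side as CPM per kb of exon, with the union exon length of GENCODE M21. The 15 secreted FGFs summed to 7.47 ± 0.581 CPM per kb in KO, 51.1 ± 1.47 in HET and 47.1 ± 1.21 in WT at day 14 (SD, n = 3), and to 13.8 ± 0.321 in KO against 127.7 ± 2.28 in WT at day 4. Fgf7 made up 18.9 ± 4.14% of that sum in KO, 89.2 ± 1.71% in HET and 77.9 ± 1.74% in WT at day 14, and 4.94 ± 0.739% in KO against 57.6 ± 0.688% in WT at day 4. Fgf10 made up 68.2 ± 4.66% in KO, 9.02 ± 1.68% in HET and 20.1 ± 1.30% in WT at day 14, and 85.2 ± 0.998% in KO against 41.6 ± 0.658% in WT at day 4. The ligand pool was thus mostly Fgf10 in KO and mostly Fgf7 in the other genotypes. Of the summed level of Fgfr1 to Fgfr4, Fgfr1 held 91.6 ± 0.446% in KO, 89.3 ± 0.974% in HET and 75.9 ± 1.05% in WT at day 14, and 91.0 ± 0.608% in KO against 78.9 ± 0.133% in WT at day 4. That receptor sum was 53.4 ± 0.588 CPM per kb in KO, 51.1 ± 1.11 in HET and 26.6 ± 1.30 in WT at day 14, and 46.2 ± 0.673 in KO against 72.0 ± 0.856 in WT at day 4.

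**Figure D2:**
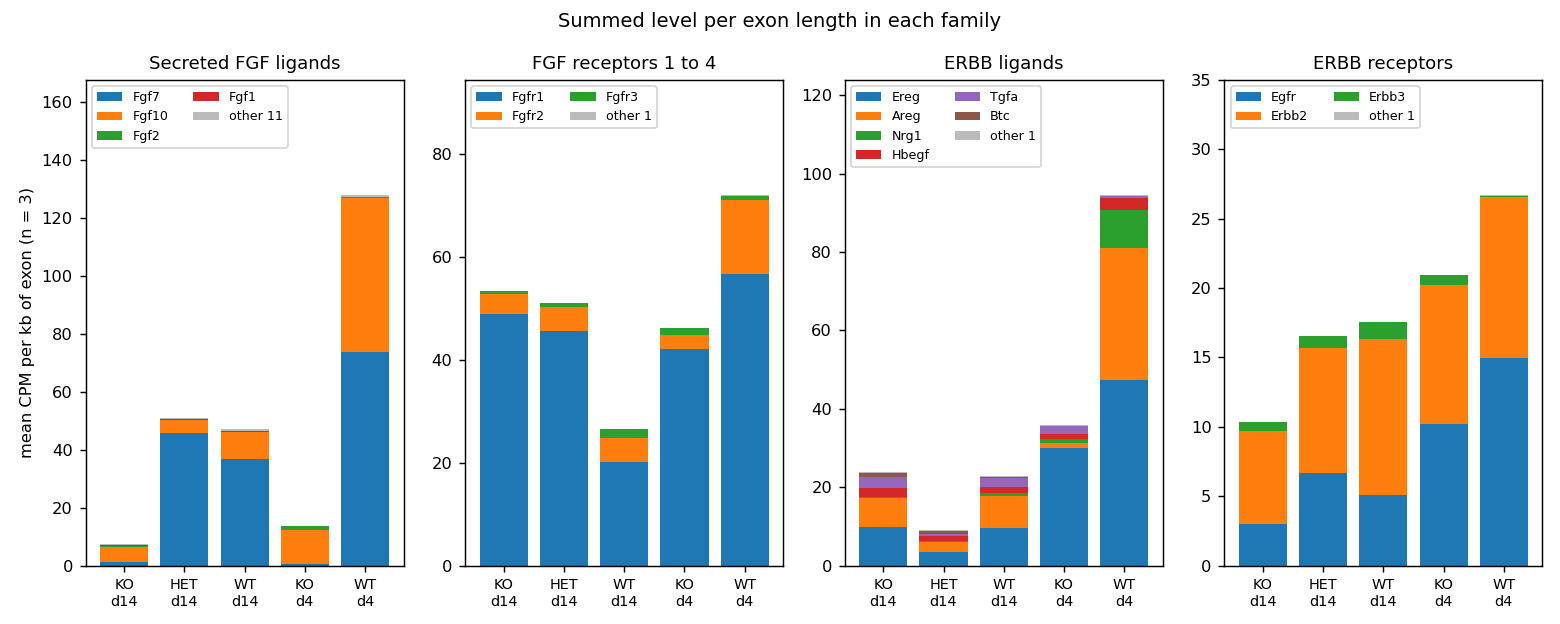
Mean CPM per kb of exon (n = 3 libraries) summed over 4 families, stacked by gene, for KO, HET and WT at day 14 and KO and WT at day 4; grey holds the remaining members of a family. The secreted FGF sum is 7.47 CPM per kb in KO at day 14 and 127.7 in WT at day 4, and Fgfr1 makes up most of the receptor bars in all 5 groups.

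Of the ERBB ligands, amphiregulin, Areg (ENSMUSG00000029378, chr5:91139599-91148432, plus strand), an EGFR ligand, had a large genotype difference at day 4. It had 1.69, 1.79 and 1.40 CPM in KO, against 43.2, 38.8 and 40.6 CPM in WT libraries at day 4. It had 8.92, 9.37 and 8.26 CPM in KO, 2.68, 3.68 and 2.48 CPM in HET and 11.8, 8.02 and 9.53 CPM in WT libraries at day 14. At day 4 every KO library was far under every WT library, at day 14 KO and WT overlapped, and HET lay below both. Areg was lower in KO at day 4, at -4.65 ± 0.16 (log2; adjusted p = 3.27e-13) and did not pass in KO against WT at day 14 (-0.14 ± 0.14, adjusted p = 0.38). In HET it was lower than in WT, at -1.74 ± 0.17 (adjusted p = 1.72e-07). With time Areg fell in WT (-2.07 ± 0.13) and rose in KO (2.44 ± 0.17), changes that differed by 4.51 ± 0.21 (interaction, adjusted p = 3.25e-11).

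Epiregulin, Ereg, a ligand of EGFR and ERBB4 whose gene neighbours Areg in the mouse genome, stood at 42.5, 39.9 and 41.5 CPM in KO, 13.6, 14.8 and 15.3 CPM in HET and 43.6, 37.4 and 39.1 CPM in WT at day 14. At day 4 it stood at 122, 127 and 123 CPM in KO, against 196, 196 and 195 CPM in WT. As for Areg, KO and WT overlapped at day 14 with HET below both, and KO was under WT at day 4. Its log2 fold change was -0.66 ± 0.06 in KO against WT at day 4 (adjusted p = 3.87e-08), 0.04 ± 0.06 at day 14 (not passing, adjusted p = 0.543) and -1.46 ± 0.07 in HET against WT (adjusted p = 4.33e-11). Neuregulin, Nrg1, the ligand of ERBB3 and ERBB4, had 2.07, 3.38 and 2.69 CPM in KO, 3.21, 1.94 and 4.41 CPM in HET and 9.75, 8.76 and 9.20 CPM in WT at day 14. It had 8.81, 9.08 and 7.89 CPM in KO, against 103, 98.5 and 99.4 CPM in WT at day 4, and the WT libraries of day 4 were far above all others. KO and HET overlapped at day 14, both under every WT library. Nrg1 was lower in KO, at -1.77 ± 0.20 at day 14 (adjusted p = 8.08e-07) and -3.55 ± 0.14 at day 4 (adjusted p = 4.27e-12). HET against WT gave a lower level as well, -1.51 ± 0.19 (adjusted p = 4.5e-06). Nrg1 overlaps Gm26578 on the opposite strand over 482 exon bases (3082 counts for Gm26578 over the 15 libraries).

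Tgfa, Hbegf and Btc, further EGFR ligands, moved in both directions in KO. Tgfa had 17.96, 20.7 and 19.2 CPM in KO, 4.36, 1.94 and 2.30 CPM in HET and 16.0, 12.8 and 14.0 CPM in WT at day 14. At day 4, Tgfa had 13.2, 12.2 and 12.1 CPM in KO, against 2.33, 2.08 and 3.20 CPM in WT. It was low in HET at day 14 and in WT at day 4, and all KO libraries lay above these. The log2 fold change was 2.33 ± 0.20 in KO against WT at day 4 (adjusted p = 2.9e-08) and -2.31 ± 0.22 in HET against WT (adjusted p = 1.36e-07). The day 14 value of 0.43 ± 0.17 in KO against WT (adjusted p = 0.0378) was lost when any of 4 libraries was left out: KO replicates 2 and 3 (0.38 and 0.44) and WT replicates 2 and 3 (0.36 and 0.42). Heparin-binding EGF, Hbegf, had 10.6, 11.4 and 9.40 CPM in KO, 6.75, 5.62 and 6.49 CPM in HET and 5.27, 7.56 and 7.85 CPM in WT at day 14. At day 4, Hbegf had 7.24, 7.32 and 5.99 CPM in KO, against 14.3, 15.7 and 13.9 CPM in WT. KO lay above HET and WT at day 14, and under WT at day 4, without overlap. Hbegf was higher in KO at day 14 by 0.60 ± 0.14 (log2; adjusted p = 0.00175) and lower at day 4, at -1.10 ± 0.13 (adjusted p = 1.89e-06). Betacellulin, Btc, had 4.44, 5.12 and 3.67 CPM in KO, 4.79, 4.31 and 3.47 CPM in HET and 1.12, 2.23 and 2.06 CPM in WT at day 14, with both mutant genotypes above WT, and under 1 CPM at day 4. Its log2 fold change against WT was 1.29 ± 0.27 in KO (adjusted p = 0.000683) and 1.21 ± 0.28 in HET (adjusted p = 0.00131). Egf itself did not pass in any comparison, with log2 fold changes in KO against WT of -0.18 ± 0.30 at day 14 and 0.50 ± 0.28 at day 4.

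Of the 4 ERBB receptors, Egfr, Erbb2 and Erbb3 were tested. Egfr (ENSMUSG00000020122, chr11:16752203-16918158, plus strand), the receptor of most of these ligands, had 31.7, 32.7 and 36.8 CPM in KO, 89.3, 52.8 and 85.7 CPM in HET and 66.0, 56.3 and 49.6 CPM in WT libraries at day 14. It had 114, 119 and 114 CPM in KO, against 167, 173 and 168 CPM in WT libraries at day 4. KO was under WT at both days without overlap, and the HET libraries were uneven, with replicate 2 within the WT range and the other 2 above it. Egfr was lower in KO, at -0.76 ± 0.15 at day 14 (log2; adjusted p = 0.00037) and -0.55 ± 0.14 at day 4 (adjusted p = 0.00245). In HET it was higher than in WT by 0.41 ± 0.15 (adjusted p = 0.0253), with 0.61 without HET replicate 2 (adjusted p = 4.88e-07). The call was lost without HET replicate 1 (0.28), HET replicate 3 (0.31), WT replicate 2 (0.40) and WT replicate 3 (0.32).

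Erbb2, the receptor without a ligand of its own, had 34.3, 37.3 and 33.5 CPM in KO, 48.5, 43.4 and 48.7 CPM in HET and 62.1, 57.5 and 56.7 CPM in WT at day 14. At day 4, Erbb2 had 52.6, 51.99 and 51.9 CPM in KO, against 61.1, 59.7 and 59.9 CPM in WT. At day 14 KO lay under HET and HET under WT, and at day 4 KO lay under WT, all without overlap. The log2 fold change against WT was -0.75 ± 0.06 in KO at day 14 (adjusted p = 5.11e-08), -0.33 ± 0.06 in HET (adjusted p = 0.000327) and -0.21 ± 0.06 in KO at day 4 (adjusted p = 0.00648). Erbb3, the kinase-impaired neuregulin receptor, had 4.73, 3.98 and 3.59 CPM in KO, 5.60, 3.84 and 5.68 CPM in HET and 8.82, 6.35 and 6.73 CPM in WT at day 14. At day 4, Erbb3 had 4.25, 3.99 and 4.45 CPM in KO, against 0.663, 0.934 and 0.632 CPM in WT. It was under 1 CPM in all WT libraries of day 4 and between 3 and 9 CPM in all others. Erbb3 was higher in KO than in WT at day 4 by 2.49 ± 0.23 (log2; adjusted p = 4.15e-08) and lower at day 14, at -0.83 ± 0.18 (adjusted p = 0.00087). In HET it was lower than in WT, at -0.53 ± 0.18 (adjusted p = 0.0189), a call lost without HET replicate 2 (-0.37) and without WT replicate 1 (-0.37).

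Per exon length, the 7 ERBB ligands summed to 23.8 ± 0.785 CPM per kb in KO, 9.07 ± 0.313 in HET and 22.8 ± 2.19 in WT at day 14 (SD, n = 3), and to 35.8 ± 0.901 in KO against 94.4 ± 1.99 in WT at day 4. At day 4 Ereg held 83.9 ± 0.840% of that sum in KO and 50.3 ± 1.01% in WT, and Areg held 3.73 ± 0.389% in KO and 35.6 ± 1.19% in WT. The 4 ERBB receptors summed to 10.4 ± 0.288 CPM per kb in KO, 16.5 ± 2.53 in HET and 17.6 ± 1.48 in WT at day 14, and to 20.9 ± 0.177 in KO against 26.7 ± 0.210 in WT at day 4. Egfr held 28.7 ± 2.55% of the receptor sum in KO, 40.0 ± 5.08% in HET and 28.7 ± 1.80% in WT at day 14.

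Set directly against HET at day 14, KO was higher for the ligands Tgfa (2.74 ± 0.21), Areg (1.59 ± 0.17), Ereg (1.505 ± 0.07), Hbegf (0.73 ± 0.15), Fgf21 (0.63 ± 0.11) and the less abundant Fgf1 (1.15 ± 0.35, adjusted p = 0.00993), on the log2 scale, and for Fgfrl1 (0.64 ± 0.07). KO was lower than HET for Egfr (-1.17 ± 0.15), Fgfr3 (-0.63 ± 0.15) and Erbb2 (-0.42 ± 0.06), as for Fgf7 above. Fgfr1 (0.10 ± 0.04, adjusted p = 0.0598), Nrg1 (-0.26 ± 0.22, adjusted p = 0.332) and Erbb3 (-0.30 ± 0.19, adjusted p = 0.176) did not pass. Without HET replicate 2 those 3 did, with 0.09, -0.51 and -0.46. In HET against WT, Fgfr2 (0.03 ± 0.09) and Hbegf (-0.13 ± 0.15) did not pass. Leaving out HET replicate 2, the log2 fold change of HET against WT was 0.28 for Fgf7, -0.93 for Fgf10, 1.82 for Fgf1, -0.36 for Fgf21 and -1.82 for Fgf11. For the FGF receptors it was 1.18 for Fgfr1, -1.32 for Fgfr3 and -1.17 for Fgfrl1. In the ERBB family it was -1.92 for Areg, -1.47 for Ereg, -2.11 for Tgfa, -1.27 for Nrg1, 1.19 for Btc and -0.27 for Erbb2, and all 14 passed.

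Over time, Nrg1 and Ereg fell in both genotypes, with log2 changes from day 4 to day 14 of -1.67 ± 0.19 in KO and -3.44 ± 0.14 in WT for Nrg1, and -1.59 ± 0.06 in KO and -2.29 ± 0.06 in WT for Ereg. Egfr fell in both as well, -1.78 ± 0.15 in KO and -1.57 ± 0.14 in WT, and its interaction of -0.21 ± 0.20 did not pass (adjusted p = 0.381). Fgf21 also fell in both, -0.40 ± 0.10 in KO and -1.41 ± 0.10 in WT, and Tgfa rose in both, 0.63 ± 0.17 in KO and 2.53 ± 0.20 in WT. Fgfr2 and Hbegf moved apart: Fgfr2 changed by 0.48 ± 0.09 in KO and -1.63 ± 0.09 in WT, and Hbegf by 0.61 ± 0.14 in KO and -1.09 ± 0.14 in WT. Fgfr3 moved the other way in each, with -1.39 ± 0.14 in KO and 1.07 ± 0.13 in WT. Erbb2 fell in KO (-0.58 ± 0.06) and did not pass in WT (-0.04 ± 0.06), and Erbb3 rose in WT (3.27 ± 0.23) and did not pass in KO (-0.05 ± 0.18). Fgfrl1 passed in neither genotype, with -0.16 ± 0.07 in KO and -0.04 ± 0.07 in WT.

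In KO against WT at day 4, 5 of the 22 tested members were higher, 15 were lower and 2 did not pass, with a median log2 fold change of -0.61. Over all 15296 tested genes 69.5% were called, 35.7% higher and 33.8% lower, with a median of 0.03. At day 14, 6 members were higher, 10 lower and 6 did not pass in KO against WT (median -0.20), where 63.1% of all genes were called, 30.9% higher and 32.2% lower (median -0.02). In HET against WT, 5 were higher, 11 lower and 6 did not pass (median -0.33), where 58.3% of all genes were called, 28.3% higher and 29.9% lower (median -0.02). Without HET replicate 2 the members gave 5 higher and 10 lower. In KO against HET, 7 were higher, 5 lower and 10 did not pass, beside 59.5% called over all genes, 29.4% higher and 30.1% lower. Without HET replicate 2 there were 8 higher and 7 lower. From day 4 to day 14, 6 members rose, 12 fell and 4 did not pass in WT beside 74.6% of all genes called, 39.7% higher and 34.9% lower. In KO 10 rose, 9 fell and 3 did not pass, beside 60.9% of all genes called, 30.8% higher and 30.1% lower. The interaction of genotype and day was positive for 11 members, negative for 5 and did not pass for 6, beside 64.7% of all genes called, 30.7% positive and 34% negative. These counts describe only the members that passed the filter, and most genes of the data set were called in every comparison.

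**Figure D3:**
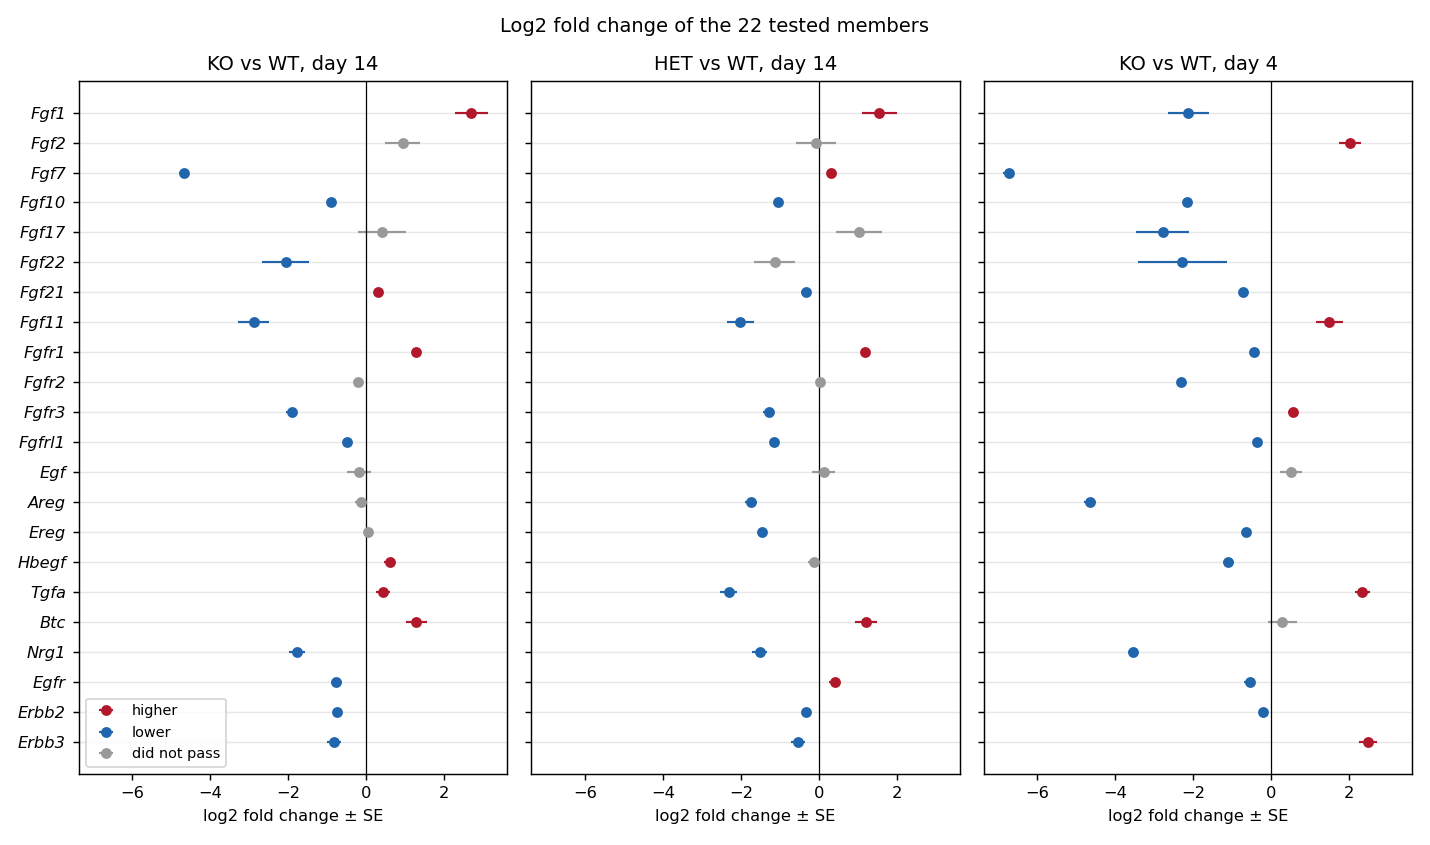
Log2 fold change ± SE from edgeR of the 22 tested members in KO against WT at day 14, HET against WT at day 14 and KO against WT at day 4; red and blue mark members called higher or lower at an adjusted p under 0.05, and grey those that did not pass. The Fgf7 points of KO are at -4.68 (day 14) and -6.74 (day 4), that of HET is at 0.31, and Fgfr1 is at 1.28 in KO and 1.17 in HET at day 14.

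A list of 23 feedback and target genes of FGF and ERK signalling (Sprouty, Spred and Dusp inhibitors, Etv and Egr factors and others) was read in the same fit, of which 22 were tested. At day 4, 4 were higher in KO than in WT, 16 were lower and 2 did not pass, with a median log2 fold change of -1.57 beside 0.03 over all genes. The called share was 90.9% of the tested list, beside 69.5% of all genes, 35.7% higher and 33.8% lower. Spry2, a feedback inhibitor of receptor tyrosine kinases, averaged 4.54 ± 0.179 CPM in KO and 149 ± 3.27 CPM in WT (SD, n = 3), a log2 fold change of -5.04 ± 0.09 (adjusted p = 4.51e-16). The growth regulator Myc averaged 83.8 ± 1.95 CPM in KO and 353 ± 11.9 CPM in WT (-2.08 ± 0.05). Ccnd1, which encodes the cell cycle protein cyclin D1, went against the majority, with 41.1 ± 0.585 CPM in KO and 2.59 ± 0.242 CPM in WT (3.97 ± 0.13), and so did Etv4, an ETS factor (0.58 ± 0.08).

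At day 14 the same list gave 12 higher, 7 lower and 3 not passing in KO against WT, with a median of 0.30 beside -0.02 over all genes. The called share was 86.4% of the tested list, beside 63.1% of all genes, 30.9% higher and 32.2% lower. The ERK phosphatase Dusp4 averaged 67.5 ± 1.81 CPM in KO and 15.2 ± 1.69 CPM in WT (2.15 ± 0.09), and Ccnd1 was higher by 1.33 ± 0.10. Another ERK phosphatase, Dusp6, had 50.9 ± 1.85 CPM in KO and 110.3 ± 3.93 CPM in WT (-1.12 ± 0.05), and the immediate early factor Egr1 was lower, at -1.12 ± 0.07. In HET against WT 7 were higher, 12 lower and 3 did not pass, with a median of -0.28 beside -0.02 over all genes. The called share was 86.4% of the tested list, beside 58.3% of all genes, 28.3% higher and 29.9% lower. Etv5 at -1.28 ± 0.09 and Phlda1 at -2.23 ± 0.15 were among the lower and Ccnd1 at 0.83 ± 0.11 among the higher. These HET results of the list were not refitted without HET replicate 2. Over time 15 of the 22 fell in WT and 3 rose, while in KO 5 fell and 10 rose. Of all genes 34.9% fell and 39.7% rose in WT, and 30.1% fell and 30.8% rose in KO. The interaction of genotype and day was called for 15 of the 22, positive for 14 and negative for Ccnd1, beside 64.7% of all genes called.

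**Figure D4:**
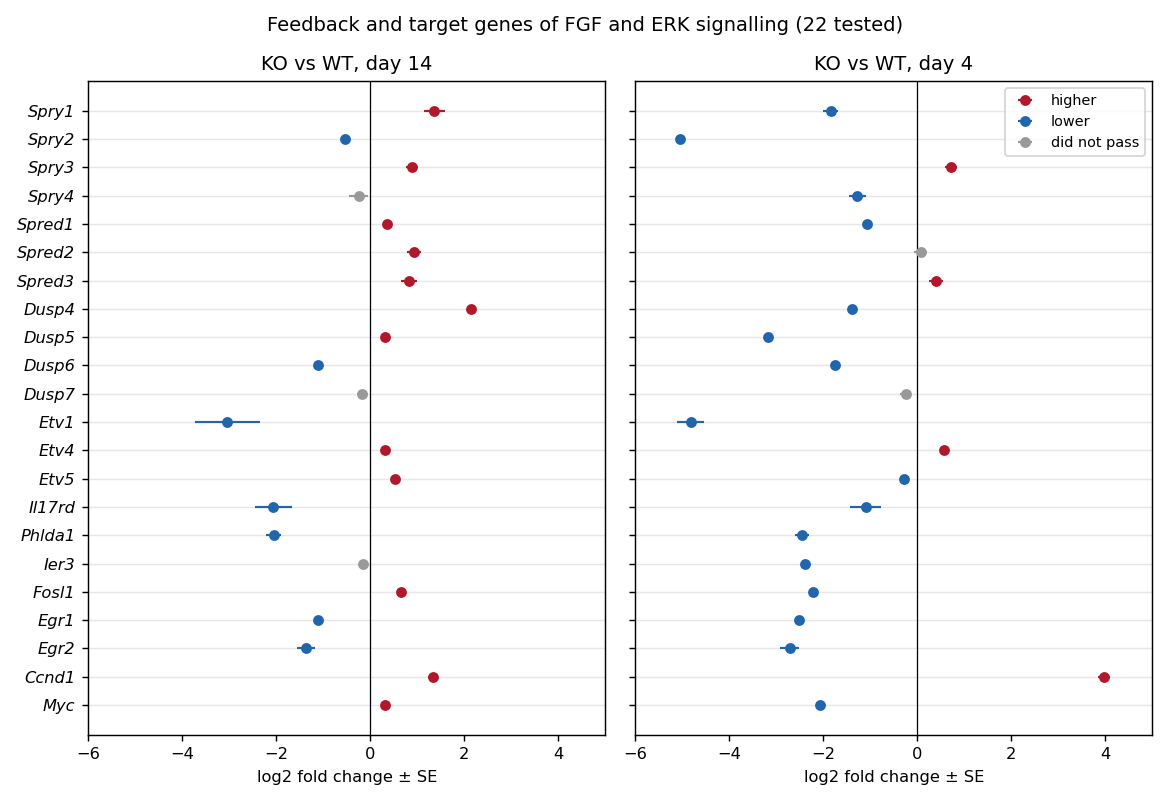
Log2 fold change ± SE from edgeR of 22 feedback and target genes of FGF and ERK signalling in KO against WT at day 14 and at day 4; red and blue mark genes called higher or lower at an adjusted p under 0.05, and grey those that did not pass. At day 4, 16 points lie in blue, down to Spry2 at -5.04, and at day 14, 12 points lie in red.

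Regulators that act on the ligands and receptors were read from 5 more lists. Of 9 genes for shedding of ERBB ligands, 5 were higher and 4 lower in KO at day 4, and 5 higher and 2 lower at day 14; over all tested genes 69.5% were called at day 4 and 63.1% at day 14. The rhomboid protease Rhbdl2 was higher in KO at both days, by 5.48 ± 0.38 at day 14 and 3.87 ± 0.39 at day 4, though at 11.3 ± 0.873 and 2.26 ± 0.283 CPM in KO. Rhbdf2, which brings the sheddase ADAM17 to the cell surface, was higher in KO at day 14 (0.78 ± 0.06) and lower at day 4 (-0.58 ± 0.06). Of 9 genes for ERBB inhibition and turnover, 1 was higher and 7 lower in KO at day 4, and 3 higher and 2 lower at day 14, which is 88.9% and 55.6% of the list beside the same 69.5% and 63.1% over all genes. Errfi1, which blocks the EGFR kinase, averaged 260.2 ± 8.73 CPM in KO, 332 ± 41.2 in HET and 92.0 ± 5.26 in WT at day 14, and 312 ± 2.82 in KO against 548 ± 2.03 in WT at day 4. At day 14 it was higher than in WT both in KO (adjusted p = 9.89e-11) and in HET (log2 fold change 1.85 ± 0.07, adjusted p = 1.17e-11). At day 4 it was lower in KO, at -0.81 ± 0.07 (adjusted p = 4.76e-08). Cblb, a ubiquitin ligase for receptor turnover, was higher against WT by 2.75 ± 0.15 in KO and 2.47 ± 0.15 in HET at day 14, and Lrig1, an ERBB inhibitor of the membrane, was lower in KO, at -0.37 ± 0.05 at day 14 and -1.17 ± 0.05 at day 4.

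Of 8 tested FGF coreceptors, carriers and docking proteins, 1 was higher and 3 lower in KO at day 4, and 2 higher and 4 lower at day 14. The called shares were 50% at day 4 and 75% at day 14, beside 69.5% and 63.1% of all genes. At day 14 the membrane protein Flrt2 was higher by 4.26 ± 0.49 and Fgfbp3, an FGF carrier, was lower, at -1.85 ± 0.16. Of 20 adaptors and core RAS-ERK genes, 4 were higher and 10 lower in KO at day 4, and 9 higher and 5 lower at day 14. Both counts make 70% of the list, close to the 69.5% and 63.1% of all genes called. Grb2, the adaptor that links receptors to RAS activation, was higher in KO at day 14 by 0.85 ± 0.06, and Rasa1, which switches RAS off, was lower, at -1.13 ± 0.06 at day 4. Of the 4 ERBB ligands outside the set, 2 were tested, and Nrg2, a neuregulin, was higher in KO at day 4 by 2.01 ± 0.59 and lower at day 14, at -4.55 ± 0.45, at under 5 CPM.

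Markers of further cell types moved with genotype beside these genes, and their part in the results was not tested. The epithelial list (7 markers, 3 tested), whose cells would carry the receptor form that binds FGF7 and FGF10, summed to 9.51 to 10.5 CPM in KO, 0.405 to 1.47 CPM in HET and 1.81 to 3.41 CPM in WT at day 14, and to 4.16 to 4.43 CPM in KO against 0.137 to 0.337 CPM in WT at day 4. Its 3 tested markers did not move together: in KO against WT 2 were higher and 1 lower at day 4. At day 14, 1 was higher, 1 lower and 1 did not pass, with a median log2 fold change of -1.45. Over all tested genes 69.5% were called in KO against WT at day 4 and 63.1% at day 14. Of the 7 epithelial markers Epcam, Krt5 and Esrp1 had no count in KO at day 14, Epcam and Esrp1 none in KO at day 4, and Krt8, Krt5 and Esrp1 none in WT at day 4. The endothelial list (4 markers, 3 tested) summed to 0.633 to 0.799 CPM in KO and 11.2 to 14.4 CPM in WT at day 4, with no marker at 0. At day 14 it summed to 2.925 to 4.42 CPM in KO, 1.37 to 2.44 CPM in HET and 3.405 to 4.25 CPM in WT, so KO and WT overlapped. In KO against WT 2 of its tested markers were lower and 1 did not pass at day 4, and all 3 did not pass at day 14. The adipocyte list (5 markers, 2 tested) summed to 415 to 432 CPM in KO, 222 to 346 CPM in HET and 13.3 to 17.5 CPM in WT at day 14, with Plin1 and Lep at 0 in KO, Adipoq and Lep at 0 in HET and Adipoq at 0 in WT. The macrophage list (4 markers, 2 tested) summed to 35.9 to 39.0 CPM in KO, 7.32 to 7.67 CPM in HET and 6.87 to 7.46 CPM in WT at day 14, with Adgre1 at 0 in KO. Its 2 tested markers went opposite ways in KO against WT at day 14, 1 higher and 1 lower (median log2 fold change -0.34), so the sum does not hold for the list as a whole. The neural and glial list (4 markers, 3 tested) summed to 50.3 to 55.8 CPM in KO and 2.97 to 3.24 CPM in WT at day 4, with Sox10 at 0 in WT. At day 14 it summed to 11.5 to 12.3 CPM in KO, 1.68 to 4.47 CPM in HET and 7.37 to 9.01 CPM in WT. In KO against WT its 3 tested markers were all higher at day 4, while at day 14 1 was higher and 2 were lower (median log2 fold change -2.68). In HET against WT all 3 were lower, where 58.3% of all genes were called. The fibroblast list (7 markers, 5 tested) summed to 1669 to 1690 CPM in KO, 2040 to 2150 CPM in HET and 765 to 827 CPM in WT at day 14, and to 904 to 915 CPM in KO against 679.8 to 685 CPM in WT at day 4, where Thy1 was at 0. In KO against WT, 4 of its tested markers were higher and 1 lower at day 4, and 3 were higher and 1 lower at day 14. The chondrocyte list (5 markers, 2 tested) summed to 28.05 to 32.2 CPM in KO, 20.2 to 20.6 CPM in HET and 3.245 to 3.74 CPM in WT at day 14, and to 21.5 to 23.0 CPM in KO against 4.84 to 7.475 CPM in WT at day 4, nearly all of it Sox9 in KO and HET. The 2 tested chondrocyte markers were both higher in KO than in WT at day 4. At day 14 they went opposite ways, with 1 higher and 1 lower both in KO and in HET against WT, so the sum does not hold for the list as a whole. Acan was at 0 in KO at day 14, Col9a1 at 0 in both genotypes at day 4 and Matn1 at 0 in KO at day 4.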

How the data were processed

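RNA-seq of 15 samples was analysed from the deposited raw counts, 1 file per sample with 46603 Ensembl gene IDs. Per the submitters' processing notes, the authors aligned reads with TopHat2 2.1.0 to GRCm38.p4 and counted reads per gene with HTSeq; DESeq2 is also named there. Not given in the sources used here: annotation release, strand setting, HTSeq and DESeq2 versions. Per the labels, libraries were made with the TruSeq RNA Library Prep Kit v2, which keeps no strand.

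GENCODE M21 gave symbols, coordinates (GRCm38) and union exon lengths to 46091 IDs; the other 512 held 0.051% of counts. Genotype and day came from the sample titles. Differences were tested by robust quasi-likelihood F tests in edgeR 4.0.16 (R 4.3.3) on all 15 samples after filterByExpr and TMM scaling, with 15296 genes, 7 comparisons and a common biological coefficient of variation of 8.33%. P-values were adjusted by Benjamini-Hochberg over all tested genes within a comparison, with a threshold of 0.05. SE is the Wald SE, with the variance of a library never below its counting error. Library totals of 19878449 to 47486736 counts set the counting precision. The code was tested on simulated data.

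Members above 10 CPM in any group are given in every library; other tested members are named with values where they passed at 2-fold or more in KO against WT. From each pathway list, up to 2 higher and 2 lower genes per comparison with the smallest adjusted p were named. The members and lists were chosen with earlier results of these data known, so they are described by counts and medians with no list test. Alternatives were RLE scaling, DESeq2 1.42.0, a filter of 1 count in all, at least 1 CPM in 3 samples, a fit of only the groups compared, a replicate block and each library left out. The labels do not say that replicate numbers pair the samples, so the main fit used no pairing. Promoter sequences are RefSeq's (GRCm38.p6). Protein sequences were not used here.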

Additional observations from a re-analysis of the deposited data

Results flagged for a closer look

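The difference between KO and WT was not the same at both days for 16 of the 22 tested members, by the interaction of genotype and day (KO against WT at day 14 minus KO against WT at day 4, log2; edgeR adjusted p under 0.05). Over all 15296 genes 64.7% were called in this comparison. For 11 members the value was positive. Fgf1 had 4.83, Areg 4.51, Fgf17 3.20, Fgfr2 2.11, Fgf7 2.06, Nrg1 1.77, Fgfr1 1.71, Hbegf 1.70, Fgf10 1.28, Fgf21 1.02 and Ereg 0.70. Among these, Fgf1, Fgfr1, Hbegf and Fgf21 were lower in KO at day 4 and higher in KO at day 14, though the day 14 call of Fgf21 was lost under 6 of 12 alternatives. Fgf7, Fgf10 and Nrg1 were lower in KO at both days, and by more at day 4. For 5 members the value was negative: Fgf11 had -4.37, Erbb3 -3.32, Fgfr3 -2.46, Tgfa -1.90 and Erbb2 -0.54. Fgf11, Erbb3 and Fgfr3 were higher in KO at day 4 and lower at day 14. The HET genotype was sampled at day 14 alone, so no such difference could be computed for it.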

How the results depend on the processing

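Of 154 results for single members (22 members in 7 comparisons), 117 were called; 107 of these kept their call under every alternative run, 10 lost it under at least 1, and 13 others gained one under at least 1. None of the 117 called results changed direction. Leaving out 1 library at a time, the members higher and lower in KO against WT numbered 5 and 14 to 15 at day 4, and 4 to 5 and 10 to 11 at day 14. In HET against WT they numbered 4 to 5 and 10 to 11, and in KO against HET 7 to 8 and 4 to 7. Under the other settings the counts in KO against WT were 5 and 13 to 16 at day 4, and 5 to 6 and 10 to 13 at day 14. Leaving out a library leaves its group with 2.

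Beside those named above, the calls lost were of Fgf17 over time, in WT (-1.31, lost under 7 of 10 alternatives) and in KO (1.89, lost under 2), and of Fgf22 over time in KO (lost under 3). The calls gained under at least 1 alternative were of Fgf2 in 4 comparisons, of Fgfr2 in KO against WT at day 14, of Fgf10, Fgf11, Fgfr1, Nrg1 and Erbb3 in KO against HET, of Egf over time in WT, of Fgfrl1 over time in KO and of Btc in the interaction. Without HET replicate 1, Fgf2 was lower in HET than in WT, at -1.22 on the log2 scale and higher in KO than in HET by 2.16.

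The labels do not say that equal replicate numbers pair samples. Over 30 pairs of groups and numbers, the correlation of the deviations from the group means was -0.303 to 0.359, with 2 above 0.1. Unequal numbers were not compared, so these values cannot settle whether samples were paired. A fit with the replicate number as a block gave 5 members higher and 15 lower in KO against WT at day 4 and 6 and 10 at day 14, and it changed no member's call. At under 1 CPM, as for Fgf17 and Fgf22, depth limits what these tests can show.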
